A study of Mus musculus with 90 samples.

Results

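Livers taken at ZT14 from mice that had received no food were compared with livers taken at ZT10, 4 h earlier, for all genes in the RNA-seq table. Zeitgeber time (ZT) counts the hours from lights on, and lights went off at ZT12. The comparison used every library that the labels place in these groups, 2 at ZT10 and 2 at ZT14-unfed, which are 4 of the 90 samples and 4 of the 54 RNA libraries of the series. The 4 mice were wild-type C57BL/6 males (C57BL/6N in the study's methods) of 10 weeks, each caged alone, fed chow, kept on a light and a dark phase of equal length, and trained for 4 days to night-restricted feeding (NRF), in which food is present only in the dark. They had therefore been without food since the start of the light phase, and the ZT14-unfed mice were also denied the meal that is due at ZT12. Time of day, the onset of darkness, and 4 more hours without food all differ between the groups and cannot be told apart. Another pair of NRF mice, which received food at ZT12 and was killed at ZT14 (ZT14-fed), helped to estimate the spread between mice and is given beside some values. RNA was depleted of ribosomal RNA before sequencing, and each library is 1 liver.

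The liver holds its own circadian clock. CLOCK and BMAL1 (encoded by Arntl) drive transcription of the Per, Cry, and Nr1d genes in daytime, the PER and CRY proteins repress CLOCK and BMAL1, and the REV-ERB proteins (Nr1d1 and Nr1d2) repress Arntl through ROR elements. Signals from outside the liver act on top of this loop. Body temperature rises as nocturnal animals become active and acts on heat shock factor 1 (HSF1), whereas glucagon, glucocorticoids, and a low insulin level act through CREB, the glucocorticoid receptor (GR), and FOXO1, and together hold the liver in a fasting program of glucose release and fat oxidation.

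Sequence next to the start sites of 6 genes with higher mRNA at ZT14-unfed is shown here because motifs named for these factors lie in it. The windows are RefSeq promoters, each matched base for base to mm9, and capitals mark the motif matches, whose positions count from the RefSeq start site as +1. Motifs were searched on both strands of windows from 250 bases before to 50 bases after each start, and a match is a description of the letters only. The ROR element was searched as AGGTCA directly after AANT, held by 0.22% of 32851 mouse promoters of this length, and the heat shock element as GAA, TTC, and GAA with NN between neighbours, held by 0.6%. Among cytosolic chaperone genes with higher mRNA at ZT14-unfed and a matched promoter, Hsph1 and Chordc1 alone held the heat shock element. The mitochondrial chaperone genes Hspd1 and Hspe1, which were not found to change, held it too. For the core clock gene Arntl and the chaperone genes Hsph1 and Chordc1, 30 bases around the match are shown.
Arntl (mm9 chr7:120351042-120351071, plus strand, ROR element at +28): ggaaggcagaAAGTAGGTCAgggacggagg
Hsph1 (mm9 chr5:150438855-150438884, minus strand, heat shock element at +16): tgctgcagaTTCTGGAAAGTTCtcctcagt
Chordc1 (mm9 chr9:18096703-18096732, plus strand, overlapping heat shock elements at -4, +2, and +7): accgGAACGTTCGGGAAAATTCCTGAAgca

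For the clock repressor gene Cry1 and the fasting genes G6pc and Igfbp1, the bases upstream of the annotated gene are shown. The E-box was searched as CACGTG (7.15% of promoters), the FOXO site as TGTTTAC (3.65%), and the insulin response element as CAAAACA (6.28%).
Cry1 (mm9 chr10:84647800-84648049, minus strand, FOXO site at -95, E-box at -60): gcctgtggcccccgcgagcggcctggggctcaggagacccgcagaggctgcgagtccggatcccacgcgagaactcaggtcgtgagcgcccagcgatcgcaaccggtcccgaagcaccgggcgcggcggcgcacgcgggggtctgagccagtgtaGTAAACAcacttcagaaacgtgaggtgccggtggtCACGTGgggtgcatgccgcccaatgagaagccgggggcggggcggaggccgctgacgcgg
G6pc (mm9 chr11:101228780-101228874, plus strand, insulin response element at -174): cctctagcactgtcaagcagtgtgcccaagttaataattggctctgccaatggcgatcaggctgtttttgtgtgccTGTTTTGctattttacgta
Igfbp1 (mm9 chr11:7097540-7097784, plus strand, insulin response element at -108): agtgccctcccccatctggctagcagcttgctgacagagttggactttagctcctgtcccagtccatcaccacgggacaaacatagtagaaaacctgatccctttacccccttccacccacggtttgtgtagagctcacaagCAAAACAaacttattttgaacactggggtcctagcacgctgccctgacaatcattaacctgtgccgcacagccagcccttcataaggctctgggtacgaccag
A DNase hypersensitive site (DHS) lay over each of the 6 windows. A FOXO1 peak from unfed ZT14 livers lay over the windows of Arntl, Chordc1, Cry1, and G6pc, and a GR peak over that of G6pc alone.

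The 4 libraries held 26890000 and 30650000 reads at ZT10 and 37950000 and 32740000 at ZT14-unfed, as recovered from the steps that single reads make in the RPKM values (reads per kilobase of transcript, scaled to library size). Albumin, the main protein that hepatocytes secrete, was the most abundant transcript in all 4 and took 7.87% and 8.38% of the summed RPKM at ZT10 and 9.36% and 9.24% at ZT14-unfed. The mice of a pair differed by a median of 0.14 (log2) per gene at ZT10 and 0.13 at ZT14-unfed. In 2 libraries, transcripts of other tissue stood apart most. Skeletal muscle transcripts were present in ZT14-unfed replicate 2, with Acta1, skeletal muscle actin, at 65.9 RPKM against 0.21 in replicate 1, and Ckm, muscle creatine kinase, at 46.1 against 0.13. The ZT10 replicate 2 liver held transcripts of duct or gallbladder epithelium, with the keratin gene Krt19 at 4.09 RPKM against 0.36 in replicate 1 and the mucosal protein gene Dmbt1 at 15.9 against 0.18. Dmbt1 was also at 2.94 RPKM in ZT14-unfed replicate 1 against 0.01 in replicate 2. The summed cholangiocyte markers of these ZT14-unfed mice were at 10.0 and 11.4 RPKM. Of 10 lists of cell type markers, 4 had a called member, and each had 1. These were Lyve1 (endothelial cells, 1.46) and Hnf4a (hepatocytes, 0.56), which were higher at ZT14-unfed, and Glul (pericentral hepatocytes) and Hal (periportal hepatocytes), which were lower (-0.42 each) but did not pass with median-ratio scaling or with any 1 of the 4 libraries left out. None of the markers tested was called for Kupffer cells (10), stellate cells (7), red cells (7), cholangiocytes (3), lymphocytes and neutrophils (1), or pancreas, muscle, and fat (4). The hepatocyte markers had a call without ZT10 replicate 1 but 0 calls without each of the other 3 libraries, and the endothelial markers had 0 calls without ZT10 replicate 2. In whole liver, fewer cells of a type and less RNA per cell cannot be told apart.

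At a limma adjusted p under 0.05, 976 of the 10907 genes tested differed between ZT10 and ZT14-unfed, which is 8.95% of them. Of these, 216 genes (1.98%) were higher and 760 (6.97%) lower at ZT14-unfed. The counts of the gene lists below are to be read against these shares. The genes that were higher had a median log2 fold change of 0.82 and those that were lower one of -0.63, and 76 and 92 of them, respectively, changed by at least 1 on the log2 scale, where all fold changes are of RPKM + 0.5. At a limma adjusted p under 0.01, 41 genes were higher and 86 lower. The groups did not overlap for any called gene, as for 56.2% of all genes tested. The median of all genes was -0.10, and after median-ratio scaling, which sets the typical gene to no change, 352 genes were higher and 409 lower. Under that scaling, 215 of the 216 genes called higher and 409 of the 760 called lower kept the call, so the falls named below that depend on the scaling are marked as such. Without ZT10 replicate 1, ZT10 replicate 2, or ZT14-unfed replicate 2, the count fell to 215, 208, and 296 genes.

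**Figure D1:**
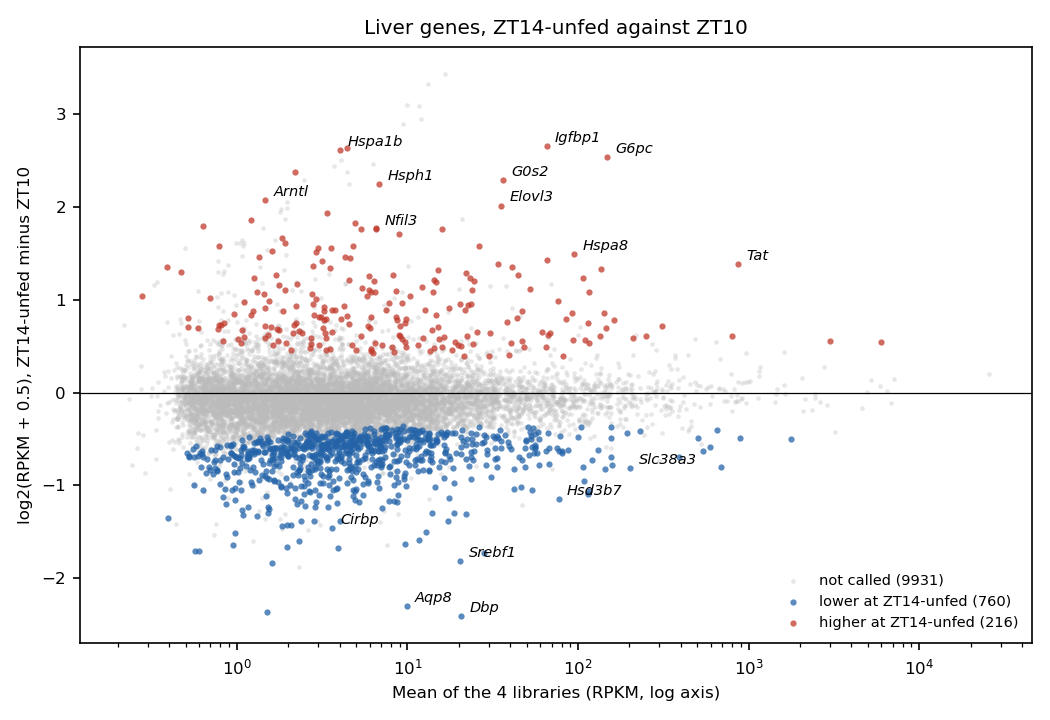
Mean RPKM over the 4 libraries (log axis) against the log2 difference between ZT14-unfed and ZT10 for the 10907 genes tested, with 216 genes called higher in red, 760 called lower in blue, and the rest in grey. Labelled rises include fasting genes (Igfbp1, G6pc), chaperone genes (Hspa1b, Hsph1), and Arntl, and the largest called fall is that of Dbp.

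In the core clock, 3 of the 16 members tested rose and 3 fell. Arntl, the activator, was at 0.226 and 0.274 RPKM in the ZT10 livers and at 2.5 and 2.85 RPKM in the ZT14-unfed livers, so both unfed ZT14 mice were far above both ZT10 mice. Cry1, a late-acting repressor, was at 2.25 and 2.07 RPKM and then at 7.18 and 7.69 RPKM. Clock, the partner of BMAL1, went from 2.84 and 2.69 to 5.45 and 6.01 RPKM. The ZT14-fed mice were at 1.29 and 1.19 RPKM for Arntl, 5.2 and 5.11 for Cry1, and 6.0 and 5.49 for Clock. The 3 falls were those of Per3 (-1.11), Nr1d2 (-0.59), and Ciart (-0.80), and with median-ratio scaling Nr1d2 (limma adjusted p = 0.0736) and Ciart (limma adjusted p = 0.0622) did not pass. Nr1d2, which encodes REV-ERBβ, a repressor of Arntl, had 23 and 26.7 RPKM at ZT10 and 15.1 and 17.7 RPKM at ZT14-unfed. Nr1d1, which encodes REV-ERBα, went from 2.71 and 3.9 to 1.57 and 2.0 RPKM, short of the threshold (-0.73, limma adjusted p = 0.0525). The Per and Cry repressor genes other than Per3 and Cry1 did not pass either, with log2 fold changes of -0.02 for Per1 (limma adjusted p = 0.949), 0.11 for Per2 (limma adjusted p = 0.548), and -0.06 for Cry2 (limma adjusted p = 0.855). Per2 was at 3.985 and 4.006 RPKM at ZT14-unfed and at 9.79 and 10.5 RPKM at ZT14-fed. The 3 rises were also called without any 1 of the 4 libraries, whereas the falls numbered 1 without ZT10 replicate 2 or without ZT14-unfed replicate 1. Npas2 and Bhlhe41 were below the filter on low values, with at most 0.341 RPKM in any of the 6 NRF libraries.

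Of 13 genes under clock control, 5 rose and 3 fell, and without ZT10 replicate 2 or ZT14-unfed replicate 2 the rises numbered 1 and 2 and the falls 3 in each case. Nfil3, a repressor that competes with the PAR-bZIP activators for D-box elements, rose from 2.66 and 2.78 to 9.71 and 11.1 RPKM, a log2 change of 1.76 (SE 0.15, limma adjusted p = 0.00371). The ZT14-fed mice were at 3.2 and 4.45 RPKM for Nfil3. The PAR-bZIP activators themselves went the other way or did not pass. Tef fell from 46 and 39.5 to 24.3 and 24.1 RPKM (-0.81), Dbp had the largest fall of the called genes (-2.41), and Hlf did not pass (-0.28, limma adjusted p = 0.133). Wee1, a kinase that holds back mitosis, fell from 4.79 and 4.55 to 2.36 and 2.23 RPKM, and the groups lay well apart. Of the clock-controlled metabolic genes, Fmo5 (0.86), Por, the electron donor to cytochromes P450 (0.69), and Nampt, the enzyme that salvages NAD (0.41), were higher, whereas Alas1, the first enzyme of heme synthesis, was at 153 and 197 RPKM at ZT10 and 231 and 150.4 RPKM at ZT14-unfed, and the groups overlap.

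**Figure D2:**
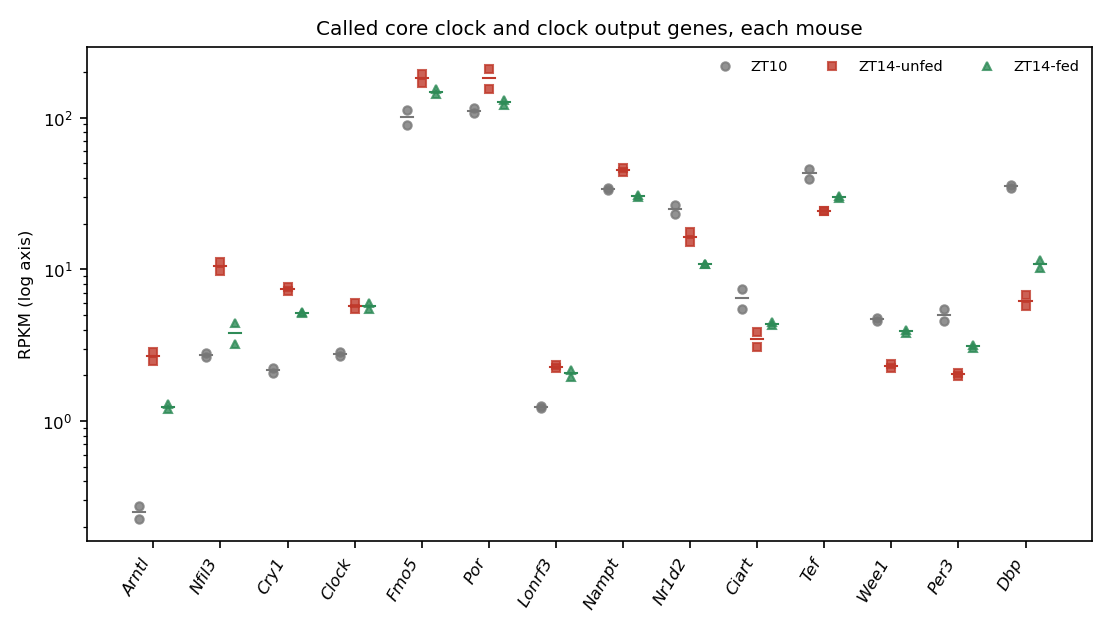
RPKM (log axis) of the called core clock and clock output genes in each mouse, with circles for ZT10, squares for ZT14-unfed, triangles for ZT14-fed, and a bar at the mean of each pair. Arntl, Nfil3, and Cry1 lie above their ZT10 values in both ZT14-unfed mice, and Dbp lies below.

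The genes of cytosolic chaperones, most of which are HSF1 targets, formed the list with the largest share of rises, 18 of 26, against 1.98% of all genes, and 0 fell. The median member rose by 0.85, against -0.10 for all genes. Hspa1b, the inducible HSP70, was at 0.823 and 0.623 RPKM in the ZT10 livers and at 9.45 and 5.12 RPKM in the ZT14-unfed livers, a log2 change of 2.62 (SE 0.24, limma adjusted p = 0.00436). Its neighbour Hspa1a, almost identical in sequence so that reads may be counted for either, was at 0.039 and 0.058 and then at 1.21 and 0.563 RPKM. Hsph1, a nucleotide exchange factor for HSP70, rose from 2.11 and 1.95 to 12.7 and 10.4 RPKM, a log2 change of 2.25 (SE 0.18, limma adjusted p = 0.00287). Without the muscle-bearing ZT14-unfed replicate 2, 13 rose, and without ZT10 replicate 2, which leaves 1 ZT10 mouse, 7 did.

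The rise took in the HSP90 machine as well. Hsp90aa1, the inducible HSP90, was at 4.33 and 3.54 RPKM and then at 15.1 and 12.8 RPKM (1.71). Hsp90ab1, the constitutive form, was more abundant and changed less, from 125 and 113 to 215 and 194 RPKM (0.78). Co-chaperones that load or regulate HSP90 were also higher, namely Stip1 (0.95), Chordc1 (1.08), Ahsa1 (0.76), Ahsa2 (0.54), and Fkbp4 (0.53). So were the J-domain proteins Dnajb1 (1.20), Dnajb4 (0.91), and Dnaja1 (0.75), the small heat shock protein Hspb8 (0.65), and Bag3 (1.21), which links it to HSP70. Hspa8, the constitutive HSP70, rose from 56 and 43.2 to 143 and 136 RPKM, though its transcript contains the genes of 3 small nucleolar RNAs whose reads may be counted with it. The 8 members that did not pass included both factors, Hsf1 (0.28, limma adjusted p = 0.3) and Hsf2 (-0.10, limma adjusted p = 0.631), and Cryab, whose 0.711 and 4.55 RPKM at ZT14-unfed was high only in the library with muscle transcripts. Summed over the list, the level was 487.3 and 410.9 RPKM at ZT10, 820.5 and 757.9 at ZT14-unfed, and 990.4 and 1098.0 at ZT14-fed.

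**Figure D3:**
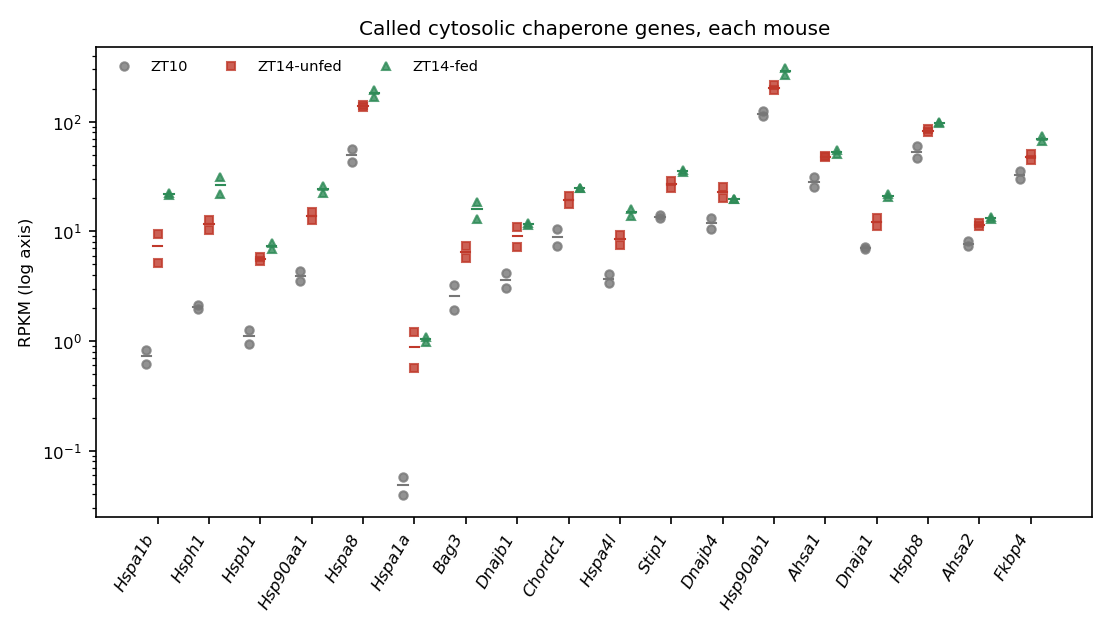
RPKM (log axis) of the 18 called cytosolic chaperone genes in each mouse, drawn as in the plot of clock genes. In every gene both ZT14-unfed mice lie above both ZT10 mice. In all but Hspa1a and Dnajb4, both ZT14-fed mice lie above both ZT14-unfed mice.

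Chaperones of other compartments gave few calls. Of 7 mitochondrial chaperones tested, 0 passed limma's test, 0 had an unadjusted p under 0.05, and they had log2 fold changes between -0.10 and 0.26. Among 23 genes of the endoplasmic reticulum and the unfolded protein response, 1 rose, the HSP40 gene Dnajc3 (0.49), and 0 fell, and with any 1 of the 4 libraries left out 0 rose. Hspa5, which encodes the endoplasmic HSP70 BiP, was at 182 and 159.7 RPKM at ZT10 and at 305 and 224 RPKM at ZT14-unfed (0.62, limma adjusted p = 0.0801). Of 10 integrated stress response genes tested, 0 passed limma's test, and 4 had an unadjusted p under 0.05. Of 10 genes of cold-inducible RNA-binding proteins and splicing factors, 1 rose and 2 fell. Cirbp, whose mRNA accumulates in the cold, fell from 4.88 and 6.2 to 1.9 and 1.48 RPKM, a log2 change of -1.46 (SE 0.15, limma adjusted p = 0.00547). The splicing factor gene Srsf5 fell from 26.4 and 27.4 to 10.1 and 11.2 RPKM (-1.30), whereas Tra2a, another splicing regulator, rose from 1.71 and 1.83 to 4.41 and 3.73 RPKM (1.00). Rbm3, the other classical cold-shock gene, was at 3.02 and 3.73 and then at 2.73 and 2.52 RPKM, which did not pass (limma adjusted p = 0.167).

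Glucose release and the cAMP response came next. Of 12 genes of gluconeogenesis and CREB signaling tested, 4 rose and 0 fell, and 3 rose without either ZT10 replicate. G6pc, the enzyme that frees glucose from glucose 6-phosphate, was at 48 and 38.6 RPKM at ZT10, at 247 and 258 RPKM at ZT14-unfed, and at 31.8 and 29.5 RPKM in the fed mice. The CREB targets Crem, a repressor of cAMP-driven genes, and Sik1, a kinase that restrains CREB coactivators, rose from 4.74 and 4.56 to 12 and 11.8 RPKM (1.27) and from 2.19 and 2.11 to 4.49 and 4.24 RPKM (0.88). Both stood near their ZT10 levels in the fed mice, at 4.41 and 4.61 and at 2.16 and 2.65 RPKM. Got1, the cytosolic aspartate aminotransferase, rose from 81.4 and 70.8 to 161 and 229 RPKM (1.33). Pcx, Fbp1, and Slc37a4, which act before G6pc or beside it, did not pass, with log2 fold changes of -0.01, -0.14, and 0.05. Pck1, which encodes phosphoenolpyruvate carboxykinase, did not pass either. Nr4a1, Nr4a2, and Nr4a3, immediate targets of CREB, were below the filter, at no more than 0.127 RPKM.

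Of 16 glycolysis and glycogen genes, 3 rose and 3 fell. Fewer of both passed without ZT10 replicate 1, without ZT10 replicate 2, or without ZT14-unfed replicate 2. The rises were of Ppp1r3g and Ppp1r3b, which target protein phosphatase 1 to glycogen, and of Pfkfb1, the liver enzyme that sets fructose 2,6-bisphosphate. Ppp1r3g was at 0.382 and 1.38 RPKM at ZT10, at 5.21 and 10.7 RPKM at ZT14-unfed, and at 0.074 and 0.083 RPKM at ZT14-fed, whereas Ppp1r3b was at 14.3 and 11, at 30.8 and 31.8, and at 56.2 and 63.3 RPKM, so the fed mice were lowest for the former and highest for the latter. The falls were of the glucose transporter gene Slc2a2, from 147 and 139.8 to 83.1 and 66 RPKM, a log2 change of -0.95 (SE 0.12, limma adjusted p = 0.00839), of Ugp2, which makes the glucose donor for glycogen (-0.73), and of Gckr, the regulator of glucokinase (-0.49).

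Insulin signaling and FOXO1 target genes contributed 6 rises and 1 fall among 22. Most of the rises were lost without ZT10 replicate 1, without ZT10 replicate 2, or without ZT14-unfed replicate 2. Igfbp1, a binding protein for insulin-like growth factors that insulin represses, was at 15.9 and 18.3 RPKM at ZT10 and at 85.7 and 142 RPKM at ZT14-unfed, the largest rise of the called genes, a log2 change of 2.66 (SE 0.22, limma adjusted p = 0.00312). The fed mice were at 0.812 and 0.907 RPKM. The insulin receptor substrate gene Irs2 rose from 1.68 and 1.78 to 3.27 and 4.47 RPKM (0.96), Irs1 from 2.61 and 2.29 to 3.63 and 4.59 RPKM (0.64), and Ccng2, a cyclin of resting cells, from 2.92 and 4.31 to 7.29 and 9.23 RPKM (1.10). Insig2 (1.58) and Gadd45b (1.23) were higher too, the latter short of the threshold with median-ratio scaling (limma adjusted p = 0.0511). Gadd45a, of the same family of stress genes, went the opposite way, from 1.56 and 1.51 to 0.406 and 0.423 RPKM, a log2 change of -1.16 (SE 0.12, limma adjusted p = 0.00558). Foxo1 itself did not pass (0.10, limma adjusted p = 0.734).

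Of 16 genes of the GR list, 3 rose and 0 fell, and 2 rose without ZT10 replicate 2 or without ZT14-unfed replicate 2. Tsc22d3, an anti-inflammatory leucine zipper gene, was at 40.6 and 26 RPKM at ZT10 and at 70.6 and 71.2 RPKM at ZT14-unfed (1.12), and Fkbp5, a co-chaperone of GR, went from 10.2 and 7.42 to 18.2 and 23.1 RPKM (1.19). Tat, tyrosine aminotransferase, rose as well (1.38). The receptor gene Nr3c1 was at 11.6 and 14.2 and then at 9.98 and 10.3 RPKM, which did not pass (-0.33, limma adjusted p = 0.12). The metallothionein gene Mt2 was at 5.32 and 10.5 RPKM at ZT10 and at 16 and 52 RPKM at ZT14-unfed, where the spread between the mice was too wide for a call (limma adjusted p = 0.0645).

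Lipid genes followed. In cholesterol synthesis, 6 of 23 genes tested fell and 0 rose. Before median-ratio scaling, all 23 had a negative log2 fold change, from -1.09 to -0.03 with a median of -0.52. The median of all genes was then -0.10. Sc5d, a late enzyme of the pathway, fell from 133 and 178 to 79.5 and 64.6 RPKM, a log2 change of -1.09 (SE 0.16, limma adjusted p = 0.0118), and Nsdhl, which acts in an earlier demethylation, from 25.7 and 36.6 to 14.8 and 16.9 RPKM (-0.94). These 2 also passed with median-ratio scaling, under which the list's median was -0.40. The other falls, of Msmo1 (-1.06), Dhcr7 (-0.71), Mvk (-0.80), and Fdft1 (-0.84), did not, with limma adjusted p-values from 0.0548 to 0.0994. In all 6 the ZT10 mouse with duct transcripts (replicate 2) was the higher of its pair, and without it 1 gene of the list fell, against 2 without ZT14-unfed replicate 2 and 10 without ZT14-unfed replicate 1. Hmgcs1 was listed at 0 in all 6 libraries under the RefSeq ID used.

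Of 16 genes of bile acid synthesis and sterol export, 4 fell and 0 rose, and 2 fell without ZT14-unfed replicate 2. Hsd3b7, an early enzyme of bile acid synthesis whose transcript overlaps Setd1a, fell from 106 and 106 to 54 and 41.8 RPKM, a log2 change of -1.15 (SE 0.13, limma adjusted p = 0.00634). The sterol transporter subunit genes Abcg5 (-0.62) and Abcg8 (-0.98), which lie head to head and overlap, and Abcb11, the bile salt export pump (-0.62), were also lower, the last of them short of the threshold with median-ratio scaling (limma adjusted p = 0.0537). Cyp7a1, the rate-limiting enzyme of bile acid synthesis, was at 121 and 61.8 RPKM at ZT10 and at 53.3 and 44.5 RPKM at ZT14-unfed (-0.82, limma adjusted p = 0.119).

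Of 17 fatty acid synthesis genes tested, 4 fell and 1 rose. The falls of Acaca (-0.67) and Gpam (-0.52), which commit carbon to fatty acids and glycerolipids, did not pass with median-ratio scaling (limma adjusted p = 0.0868 and 0.133), whereas those of Srebf1, the lipogenic transcription factor (-1.82), and Acss2, which makes acetyl-CoA from acetate (-1.03), did. The rise was that of Lpin1, a phosphatidate phosphatase that also acts as a coactivator in fasting, from 56.6 and 76.1 to 123 and 115 RPKM, a log2 change of 0.85 (SE 0.16, limma adjusted p = 0.0228), with 15.9 and 19.4 RPKM in the fed mice. The call of Lpin1 was lost without ZT10 replicate 1 and also without ZT14-unfed replicate 1. Without ZT10 replicate 2, 1 gene fell, and without ZT14-unfed replicate 2, 2 did. Of 26 genes of fatty acid oxidation and ketogenesis, 4 rose and 2 fell, against 0 and 0 without ZT10 replicate 2 and 2 and 1 without ZT14-unfed replicate 2. Acot1, a thioesterase induced by fasting, rose from 6.52 and 6.65 to 16.1 and 34.4 RPKM (1.77), Angptl4, an inhibitor of lipoprotein lipase, by 1.43, Plin5, a lipid droplet protein, from 17.5 and 9.81 to 24.1 and 41.2 RPKM (1.23), and Acsl1, which activates long-chain fatty acids, by 0.61. The falls of Bdh1, the ketone body dehydrogenase (-0.79), and Abcd2 (-0.93) did not pass with median-ratio scaling (limma adjusted p = 0.079 and 0.0503). For this list the falls were near the 6.97% of all genes that fell, and the rises stood against 1.98%. Cpt1a, the gate of mitochondrial fat oxidation, did not pass (0.07, limma adjusted p = 0.812).

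Among 21 genes of amino acid breakdown and the urea cycle, 4 rose and 2 fell, and 1 rose and 0 fell without ZT10 replicate 2 or without ZT14-unfed replicate 2. Besides Tat, the rises were of Asl, argininosuccinate lyase, from 259.8 and 207 to 348 and 420.4 RPKM (0.72), of Aass, which starts lysine breakdown (0.54), and of Mat1a, which makes S-adenosylmethionine (0.61). The falls of Cbs (-0.43) and Hal (-0.42) did not pass with median-ratio scaling. Over all genes, 1.98% rose and 6.97% fell. Of 9 amino acid transporter genes tested, Slc38a3, the glutamine transporter of hepatocytes, fell from 249 and 267 to 144 and 149 RPKM, a log2 change of -0.81 (SE 0.08, limma adjusted p = 0.00547), and Slc25a15, the mitochondrial ornithine carrier, rose (0.49). Polyamine genes gave 2 falls in 9, Sat1 (-0.57), which acetylates polyamines for export, and Azin1 (-0.40), which did not pass with median-ratio scaling. Without ZT10 replicate 1, ZT10 replicate 2, or ZT14-unfed replicate 2, 0 polyamine genes fell and 0 transporter genes rose.

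Many cellular systems gave few or no calls, where 1.98% of all genes rose and 6.97% fell. Of 24 ribosomal protein genes, 19 respiratory chain genes, 12 genes of iron handling, and 9 of growth hormone signaling, 0 passed limma's test, with medians between -0.07 and 0.02. An unadjusted p under 0.05 was held by 0, 0, 1, and 1 of them, respectively. Ribosome biogenesis gave 2 falls in 19, Rrp9 (-0.69) and Dkc1 (-0.47), and neither passed with median-ratio scaling or with any 1 of the 4 libraries left out. Of 18 genes of drug metabolism tested, Cyp2b10, the classical target of the receptor CAR, rose from 0.628 and 0.641 to 1.98 and 4.36 RPKM (1.61), and Nr1i3, which encodes CAR, fell from 72.1 and 63.3 to 42.8 and 42.6 RPKM (-0.66). The list had 0 rises without ZT10 replicate 1, ZT10 replicate 2, or ZT14-unfed replicate 2, and 0, 2, and 1 falls. Acute phase and inflammatory genes gave 2 falls in 16, the interferon-induced Ifit1, from 2.5 and 2.43 to 1.03 and 1.02 RPKM, and the chemokine gene Cxcl1, from 2.53 and 3.64 to 1.05 and 0.61 RPKM, which passed neither with median-ratio scaling (limma adjusted p = 0.0655) nor without ZT14-unfed replicate 2 (limma adjusted p = 0.116). Of 9 immediate-early genes tested, Jun alone was called, from 1.32 and 1.06 to 3.49 and 3.12 RPKM (1.17), while Fos and Egr1 were below the filter. Of 7 cell cycle genes tested, Wee1 was the 1 called, and of 8 long noncoding RNAs, Snhg3 (0.81), which holds a small nucleolar RNA. The noncoding RNA list had 0 rises without ZT10 replicate 1, ZT10 replicate 2, or ZT14-unfed replicate 2, and the immediate-early list had 0 without either ZT10 replicate.

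**Figure D4:**
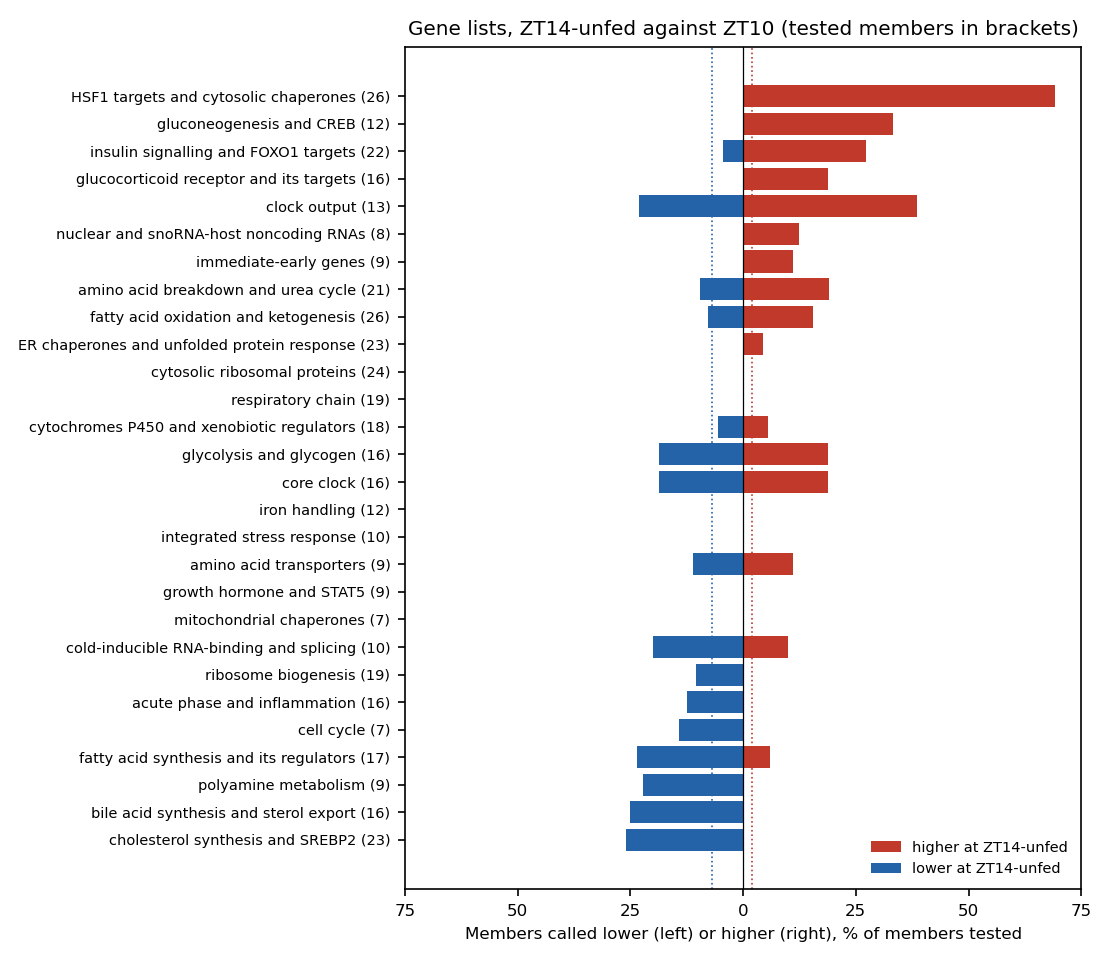
Share of the tested members of each of 28 gene lists that were called higher (right, red) or lower (left, blue) at ZT14-unfed, in percent, with the number tested in brackets. Dotted lines mark the shares over all genes, 1.98% higher and 6.97% lower, and the cytosolic chaperones stand at 69.2% higher.

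Several of the largest changes lay outside these lists. Among the rises, Fam107a, an actin-associated gene, was at 0.14 and 0.444 RPKM at ZT10 and at 1.92 and 6.23 RPKM at ZT14-unfed. G0s2, an inhibitor of the lipase ATGL, went from 12.9 and 9.38 to 36 and 86.5 RPKM, with 114 and 207 RPKM in the fed mice. Elovl3, a fatty acid elongase known for its daily rhythm in liver, went from 11.8 and 15.5 to 46 and 68.7 RPKM and was at 14.7 and 12.7 RPKM in the fed mice, and part of its sequence overlaps Pitx3 on the opposite strand. For these 3 genes the ZT14-unfed mice differed widely from each other. Tighter rises were those of the tubulin gene Tubb2a, from 2.31 and 1.5 to 8.94 and 7.02 RPKM (1.83), the collagen hydroxylase gene P4ha1, from 2.45 and 1.82 to 9.96 and 7.0 RPKM (1.76), and the solute carrier gene Slc45a3, from 2.95 and 2.41 to 8.94 and 11.9 RPKM (1.77).

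Among the falls, Aqp8, a water and hydrogen peroxide channel, went from 18.9 and 14.7 to 2.98 and 3.01 RPKM, a log2 change of -2.30 (SE 0.13, limma adjusted p = 0.00102). Gpr146, a receptor that acts on hepatic cholesterol secretion, fell from 18.1 and 20.1 to 6.14 and 6.66 RPKM (-1.51), Sucnr1, the succinate receptor, from 17.1 and 18.4 to 6.91 and 4.48 RPKM (-1.58), and Eepd1, a target of the sterol receptor LXR, from 5.13 and 7.4 to 1.6 and 1.58 RPKM (-1.67). Klhdc7a (-1.83), 1810008I18Rik (-1.73), Dclk3 (-1.66), Clec2h (-1.63), and Cebpe (-1.44) were the others among the 15 largest called falls that no list holds. Klhdc7a, Gpr146, Dbp, Srebf1, and Nr1i3 overlap other annotated genes, and whether their reads were told apart by strand was not stated. Rows for the microRNA precursors Mir6921 (-2.37) and Mir130c (-1.60) and for the small nucleolar RNA Snord91a (1.86) also ranked among the largest changes, but these rows are short and hold few reads, are not measures of mature microRNAs, and Mir130c did not pass with median-ratio scaling (limma adjusted p = 0.066) nor Snord91a without ZT14-unfed replicate 2 (limma adjusted p = 0.0631).

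The meal itself was measured in mice of another experiment. These were wild-type C57BL/6N mice on NRF that received vehicle (PBS) before the meal was due, and were fed or kept unfed until ZT14, with 4 mice a group and polyA-enriched RNA. Of 11251 genes tested, 352 (3.13%) differed, 287 higher (2.55%) and 65 lower (0.578%) in the fed mice, a split that became 114 and 107 with median-ratio scaling. The total was 123, 86, and 121 without unfed replicates 1, 2, and 3, and 157, 124, and 191 without fed replicates 1, 2, and 3. With the replicate number fitted as a block it was 928, 756 higher and 172 lower, and the counts below are without that block. Among the 213 genes that rose from ZT10 to ZT14-unfed and were tested here, 14 (6.57%) were lower in the fed mice and 2 (0.939%) higher. Igfbp1 went from 119 ± 67.8 RPKM (SD, n = 4) in unfed mice to 6.25 ± 3.68 RPKM in fed mice, a log2 change of -4.08 (SE 0.56, limma adjusted p = 0.00288). G6pc fell from 211 ± 78.8 to 70.9 ± 29.9 RPKM (-1.60), and Ccng2 from 7.18 ± 1.31 to 3.16 ± 0.845 RPKM (-1.08). Irs2, Tat, Tsc22d3, Angptl4, Plin5, and Fam107a were also lower, with log2 fold changes from -1.52 to -0.64. Of the 750 genes that fell from ZT10 to ZT14-unfed, 16 (2.13%) were higher in the fed mice and 4 lower, and Gadd45a rose from 0.955 ± 0.292 to 3.73 ± 1.57 RPKM (1.49). Of 16 core clock, 13 clock output, and 26 cytosolic chaperone genes, 0 passed limma's test here, and 4, 5, and 10 had an unadjusted p under 0.05. Nfil3 was at 17.3 ± 1.65 RPKM in unfed and 10.3 ± 0.449 RPKM in fed mice, and Arntl at 1.9 ± 0.544 and 1.45 ± 0.43 RPKM. The 36 time-of-day genes called here depended on single mice, with 10 left without unfed replicate 2 and 14 without fed replicate 2. Hsph1 was at 28.9 ± 4.76 RPKM in unfed and 62.8 ± 15.2 RPKM in fed mice (1.08, limma adjusted p = 0.0751).

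Loss of GR was measured in a separate set of mice. Mice with floxed Nr3c1 (GR fl/fl) on a C57BL/6N background received AAV8 with the hepatocyte-specific TBG promoter driving CRE or GFP before NRF and were killed unfed at ZT14, with 4 mice a group and polyA-enriched RNA. Nr3c1, the targeted gene, was at 14.2 ± 1.55 RPKM (SD, n = 4) with GFP and at 4.41 ± 0.637 RPKM with CRE, a log2 change of -1.58 (SE 0.12, limma adjusted p = 6.83e-05), and liver cells other than hepatocytes keep the gene. Of 11649 genes tested, 778 (6.68%) differed, 519 higher (4.46%) and 259 lower (2.22%) with CRE, a split that became 294 and 369 with median-ratio scaling. The total was 391 without CRE replicate 2, 428 without CRE replicate 1, and 432 without GFP replicate 2. Of 7 erythroid markers, 5 were higher with CRE, and their summed level lay between 439.5 and 578.1 RPKM with GFP and between 630.6 and 1322.1 RPKM with CRE, with none at 0, and their part in the result was not tested. Of the 210 genes that rose from ZT10 to ZT14-unfed and were tested here, 51 (24.3%) were lower with CRE and 5 (2.38%) higher. Of the 754 that fell, 146 (19.4%) were higher with CRE and 4 (0.531%) lower. Among genes not called between ZT10 and ZT14-unfed, 1.96% were lower and 3.66% higher. The 206 genes called in both comparisons make up 21.4% of the time-of-day genes tested and 26.5% of the genes called on loss of GR, and they numbered 117 without CRE replicate 2, 123 without CRE replicate 1, and 131 without GFP replicate 2. Under median-ratio scaling, the falls from ZT10 to ZT14-unfed numbered 409 and the genes higher with CRE 294. The overlap of the comparisons is not given under that scaling.

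Genes higher at ZT14-unfed and lower with CRE came from several lists. Lpin1 went from 168 ± 39.1 RPKM (SD, n = 4) with GFP to 6.97 ± 1.62 RPKM with CRE, a log2 change of -4.50 (SE 0.18, limma adjusted p = 6.23e-07). Igfbp1 went from 79.5 ± 26.5 to 13.2 ± 8.24 RPKM (-2.62), Fkbp5 from 47.5 ± 15.6 to 6.97 ± 0.678 RPKM (-2.64), and Tsc22d3 from 84.2 ± 33.6 to 21.9 ± 1.92 RPKM (-1.81). For these genes the CRE livers were lower by more than the SD of either group. Got1, from 238 ± 79.4 to 85.9 ± 6.7 RPKM, Pfkfb1, from 21.5 ± 4.89 to 8.21 ± 2.39 RPKM, and the clock-controlled Fmo5, from 335 ± 101 to 124 ± 30.7 RPKM, were also lower. In the opposite quadrant, Aqp8 went from 5.7 ± 0.808 to 18.4 ± 10.1 RPKM (1.44), Klhdc7a from 2.28 ± 0.83 to 6.94 ± 1.88 RPKM (1.43), Sucnr1 from 9.1 ± 2.02 to 21.4 ± 4.74 RPKM (1.19), and Wee1 from 5.59 ± 0.897 to 9.77 ± 0.475 RPKM (0.76). Of the cytosolic chaperones, 1 of 26 was called lower with CRE, Hspb8 (-0.61), and 0 higher. Hsph1 was at 35.5 ± 13 RPKM with GFP and 33.9 ± 5.79 RPKM with CRE, and the log2 difference of Hspa8 was -0.01. G6pc was at 212 ± 86.5 and 154 ± 83.1 RPKM (-0.51, limma adjusted p = 0.5), and Arntl at 1.05 ± 0.605 and 0.583 ± 0.153 RPKM (-0.45, limma adjusted p = 0.388). Of the core clock genes called between ZT10 and ZT14-unfed, Ciart passed on loss of GR, from 15.8 ± 4.5 to 5.46 ± 0.812 RPKM (-1.41), in the direction of its fall. Over the whole lists, 3 of 16 core clock genes were higher with CRE and 2 lower. Of 13 clock output genes, 2 were higher and 4 lower, against 4.46% and 2.22% of all genes tested. Dbp was at 30.8 ± 15.6 RPKM with GFP and at 61.4 ± 6.53 RPKM with CRE, opposite to its fall. The GFP mice spread widely for Dbp, from 12.1 to 50.2 RPKM, and the CRE mice lay between 54.8 and 69.6 RPKM.

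**Figure D5:**
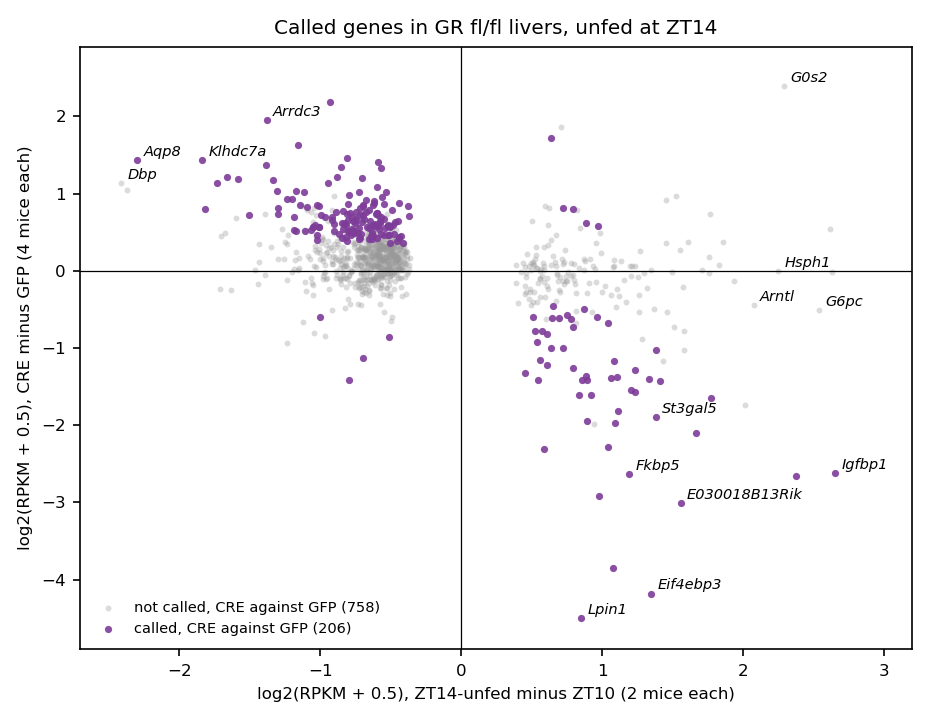
Log2 difference between ZT14-unfed and ZT10 (2 mice each) against the log2 difference between CRE and GFP in GR fl/fl livers (4 mice each) for the genes called in the former, with those also called on loss of GR in purple. Of the genes that rose, 51 are called lower and 5 higher with CRE, and Hsph1 and Arntl are not called.

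Binding sites were counted near the same genes. The GR and FOXO1 peaks were called by the authors in livers of ZT14-unfed mice, so they describe 1 end of the comparison and not its change. Of the 9556 tested genes that GENCODE places on mm9, 21.0% had a GR peak and 25.2% a FOXO1 peak within 10 kb of the start. Among the 195 placed genes that rose, 97 (49.7%) had a GR peak and 98 (50.3%) a FOXO1 peak, and among the 680 that fell, the shares were 26.0% and 26.2%. A DHS lay as near for 99.0% of the rises, 97.6% of the falls, and 97.4% of all genes. The genes that rose were expressed at a median of 6.48 RPKM, those that fell at 4.32, and all genes tested at 3.74, and the part of that difference in the shares was not tested. Mat1a, Nfil3, and Insig2 had 4 GR peaks each within 10 kb, G6pc, Tat, Fkbp5, and Got1 had 3, and Igfbp1 had 2. Hspa1b, Hsph1, Hspb1, Hsp90aa1, and Arntl had 0.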

How the data were processed

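Liver RNA of the 6 NRF mice (2 each at ZT10, ZT14-unfed, and ZT14-fed) was used, with 20 libraries of injected mice and 8 of GR fl/fl mice for the independent comparisons. The authors aligned reads to mm9 with STAR, normalized them to RPKM on RefSeq transcripts, the deposited unit, and called genes with DESeq2 on counts. The counting tool and strand are not given in the sources used here. Deposited peak and DHS lists (the authors' HOMER calls, mm9) give positions only, with no score.

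Of 35707 RefSeq IDs, the one with the highest mean stood for each of 24312 symbols, and 0 value columns were left unused. Genes averaging 0.5 RPKM or more were tested as log2(RPKM + 0.5) with limma 3.58.1 (R 4.3.3, variance trend, Benjamini-Hochberg adjustment), 1 fit per experiment. With 2 mice a side an exact permutation test cannot go below p = 0.33. Read steps gave 25940000 to 37950000 reads per NRF library, with 92.3% to 94.9% of low values whole within 0.06 reads (12% by chance), so 0.5 RPKM is 13 to 19 reads per kilobase. On simulated data for the 2-mouse design (10907 genes), 22% of changes of 0.5 (log2), 90% of 1, and 100% of 2 were recovered, and 3.7% of calls were false. The simulated mice had independent normal noise at each gene's fitted spread, with 200 genes changed. They had no shift of the typical gene and no transcripts of other tissue, so the 3.7% is not the error rate of the calls reported here. Python 3.11.15 (pandas 2.3.3, numpy 2.4.6) counted lists, peaks, and motifs. Promoters are RefSeq's.

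The comparison, the 28 gene lists, and the 10 marker lists were chosen with earlier results of these data known. Named genes were the 15 largest rises and 15 largest falls among called genes averaging 1 RPKM or more whose groups did not overlap and, per list, up to 8 called and 4 other members. Other list members named in the text were chosen after their values were seen. Alternatives were pseudocounts, filters, scalings, a replicate block, no variance trend, a fit of just the groups compared, all RefSeq IDs, a stricter threshold, and each library left out.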

Additional observations from a re-analysis of the deposited data

Results flagged for a closer look

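Of 48 groups of 4 mice whose values are given above, 2 held a mouse farther from its nearest neighbour than Dixon's 95% limit for its share of the group's range allows, and chance gives about 1 in 20. Among vehicle-injected unfed mice, Ccng2 was at 5.25 RPKM in the lowest mouse and between 7.69 and 8.11 RPKM in the other 3. Among GR fl/fl mice with CRE, Igfbp1 was at 25.6 RPKM in the highest mouse and between 8.41 and 9.51 RPKM in the other 3, while the GFP mice lay between 43.8 and 105.9 RPKM.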

How the results depend on the processing

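The 976 genes called between ZT10 and ZT14-unfed became 222 without the filter on low values, 399 with the 2 groups fitted alone, 1970 over every RefSeq ID, and 127 at a threshold of 0.01. Leaving out 1 library gave 208 to 775 genes (215 without ZT10 replicate 1, 208 without ZT10 replicate 2, 775 without ZT14-unfed replicate 1, 296 without ZT14-unfed replicate 2). Pseudocounts of 0.1 and 1, a filter at 2 RPKM, no variance trend, and both scalings gave 722 to 1036, and rises made up 46.3% of calls under median ratios and 45.3% under quantiles, against 22.1%. Of 102 called genes among the 213 named, 19 lost the call under median ratios, 16 under quantiles or with no variance trend, 31 with the groups alone, 56 without the filter, and 13 to 50 on leaving out 1 library (47 and 50 without ZT10 replicates 1 and 2, 39 without ZT14-unfed replicate 2). The 352 genes changed by the meal became 86 to 394 and the 778 changed on loss of GR 391 to 708 on leaving out 1 mouse. The 36 genes also changed by the meal became 20 without the filter and 10 to 38 on leaving out 1 mouse (unfed replicates 1, 2, and 3 gave 14, 10, and 17, and fed replicates 1, 2, and 3 gave 23, 14, and 20), and the 206 also changed on loss of GR became 126 without the filter and 117 to 195 (131 without GFP replicate 2, 123 and 117 without CRE replicates 1 and 2).

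Replicate numbers were not taken to pair the mice, since no experiment had every pair over 0.1. Deviations of same-numbered mice correlated at 0.05 between ZT10 and ZT14-unfed, at 0.05 to 0.51 in the vehicle-injected mice, and at -0.05 to 0.15 in the GR fl/fl mice. With the number as a replicate block, the counts were 591 between ZT10 and ZT14-unfed, 72 and 173 for the genes also changed by the meal and on loss of GR, and 928 and 616 for all genes changed by the meal and on loss of GR. Counts rest on 25940000 to 37950000 reads per NRF library, and genes below 0.5 RPKM were not tested.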

Other observations

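The unfed ZT14 mice differed from each other in a set of metabolic genes, named here after their values were seen. In replicate 2, the pyruvate dehydrogenase kinase gene Pdk4 was at 4.36 RPKM against 0.88 in replicate 1, the mTORC1 inhibitor gene Ddit4 at 4.83 against 1.55, the metallothionein genes Mt1 at 151 against 48.9 and Mt2 at 52 against 16, and the lipid droplet gene Plin2 at 99.3 against 44.5. The order was the opposite for Angptl8, a hormone that rises with feeding, at 3.60 against 13.9 RPKM, the lipogenic gene Thrsp at 267 against 601, the desaturase gene Scd1 at 292 against 590, and Insig1 at 67.5 against 120.5. With 1 mouse on each side this difference has no test. Replicate 2 is the library with skeletal muscle transcripts, and their part in these values was not tested. The ZT10 mice were closer for Angptl8 (6.91 and 6.71 RPKM) and Thrsp (287 and 332). Bcl6, a repressor of lipid oxidation genes, was at 5.89 and 2.05 RPKM at ZT10 and at 0.29 and 1.01 RPKM at ZT14-unfed, and the log2 difference of -1.88 missed the threshold (limma adjusted p = 0.0517).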
